A study of Homo sapiens with 6 samples.

Results

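The BCL2 family sets whether the outer membrane of the mitochondria is opened during apoptosis, and 10 of its genes were followed here among the 20263 genes of the deposited table. The members were taken by their current gene symbols, matched from the Ensembl gene identifiers of the table, and all 10 had enough counts to be tested. By role, 4 encode survival proteins (MCL1, BCL2, BCL2L1 and BCL2L2), 2 encode the effectors that form the membrane pore (BAX and BAK1) and 4 encode BH3-only proteins, the sensors of stress (BMF, BCL2L11, BBC3 and PMAIP1). Total RNA was sequenced in 3 libraries from cells given a LINC01518 overexpression vector and 3 libraries from cells given an empty vector. LINC01518 is a long non-coding RNA. The labels give the cell line as LNCaP, a hormone-dependent line from human prostate cancer, for both groups. The design text gives the insert as MEG3, a different long non-coding RNA, and the sample labels are followed here. The level of either RNA was not analysed here. Whether the 3 libraries of each group are separate cultures is not stated, and p-values therefore measure only the spread among the libraries, possibly all of it technical.

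In living cells the survival proteins hold the effectors and the BH3-only proteins in a groove on their surface. BH3-only proteins fill that groove with a short helix, the BH3 domain, and so free BAX and BAK1, which then release cytochrome c from the mitochondria and start the caspases. The protein products differ in lifetime, and that of MCL1 is known to be degraded quickly, so its level depends on continued synthesis. The balance of survival to BH3-only products is what drugs that mimic the BH3 domain exploit.

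The labelled cell type was compared with 12 markers of LNCaP or luminal prostate cells. Of these, 5 had 0 counts in all 6 libraries, namely KLK3, KLK2, TMPRSS2, FOLH1 and TRPM8. Summed over the list, these markers lay between 2722 and 2891.5 CPM with overexpression and between 2257 and 2529 CPM with empty vector (CPM are counts scaled to a common library size with the TMM method), most of it from the keratin genes KRT8, which rose, and KRT18. Summed fibroblast markers lay between 154 and 159 CPM with overexpression and between 112 and 122 CPM with empty vector, mostly from COL1A1, which rose. PDGFRB rose on counts, but on the deposited TPM its groups overlapped, at a log2 fold change of -0.061. LUM had 0 counts in every library. The part of either difference in summed markers in the results was not tested. PTPRC and CD3E, which mark blood cells, had 0 counts in every library, and endothelial markers summed to between 7.12 and 9.02 CPM with overexpression and between 8.11 and 8.65 CPM with empty vector. Libraries held 38161544 to 42553688 counts. One overexpression library, replicate 3, stood apart from the other overexpression libraries at BCL2L2 and BBC3, and both genes are given with and without it. It did not stand apart over all genes: the chi-square per degree of freedom between pairs of overexpression libraries lay between 19.1 and 20.0, and between pairs of empty vector libraries between 21.4 and 29.9.

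The feature that all the members share is the BH3 domain, and the bases that encode its core are shown because they define the family. Each line gives 33 bases of the coding strand of the principal transcript in GENCODE release 29 (GRCh38). They run from the codon before the leucine codon that opens the core, and the capitals mark the glycine or alanine codon and the aspartate codon that follows it. Entries were matched for 8 of the 10 members in the RefSeq promoter table, and the same 8 are shown. MCL1 and BCL2L2 had no entry.
BMF: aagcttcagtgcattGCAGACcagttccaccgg
BCL2L11: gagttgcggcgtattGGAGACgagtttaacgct
BBC3: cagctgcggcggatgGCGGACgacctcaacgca
PMAIP1: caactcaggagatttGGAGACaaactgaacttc
BAX: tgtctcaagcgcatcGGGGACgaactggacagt
BAK1: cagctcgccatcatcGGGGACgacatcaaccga
BCL2: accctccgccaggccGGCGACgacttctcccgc
BCL2L1: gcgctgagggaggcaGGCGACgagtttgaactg
Each stretch was found by a search for leucine or methionine, followed at a set distance by glycine or alanine and then aspartate. The aspartate was thus required by the search, and only its codon and the choice of glycine or alanine could differ. All 8 spell the aspartate with the same codon. BMF and BBC3 have an alanine codon before it, where the other 6 have a glycine codon. In BMF the stretch lies in 1 coding exon at chr15:40104195-40104227 on the minus strand, starting 1 codon before codon 137 of 184. In BBC3 it lies at chr19:47226579-47226611 on the minus strand, starting 1 codon before codon 141 of 193. The deposited values are sums over all transcripts of a gene, so forms with and without this stretch were not separated.

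Of the 10 members, 2 passed the test between the groups, MCL1, which fell, and BMF, which rose. The test was the quasi-likelihood F test of edgeR over 13543 genes, with a Benjamini-Hochberg adjusted p under 0.05 called. Among all genes tested 5.6% were called, 3.57% higher and 2.03% lower with overexpression. Without TMM scaling the split over all genes was 346 higher and 382 lower, against 484 higher and 275 lower with it, and the same 2 members were called in the same directions. DESeq2, which called 10.8% of the 12225 genes it gave an adjusted p, and limma-voom, which called 5.52%, also called these 2 members alone. DESeq2 gave no p for BCL2L2, so that member was not tested there. The members did not move by role: 1 of 4 survival genes fell, 1 of 4 BH3-only genes rose and 0 of 2 effector genes were called, while 5 of the 10 had a positive and 5 a negative log2 fold change. The median log2 fold change (overexpression minus empty vector) was -0.16 for the survival genes, 0.03 for the effectors and -0.04 for the BH3-only genes, beside 0.00 over all members and 0.00 over all genes tested. An unadjusted p under 0.05 was reached by 3 of the 10 members, MCL1, BMF and PMAIP1, and by 23.6% of all genes tested.

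**Figure D1:**
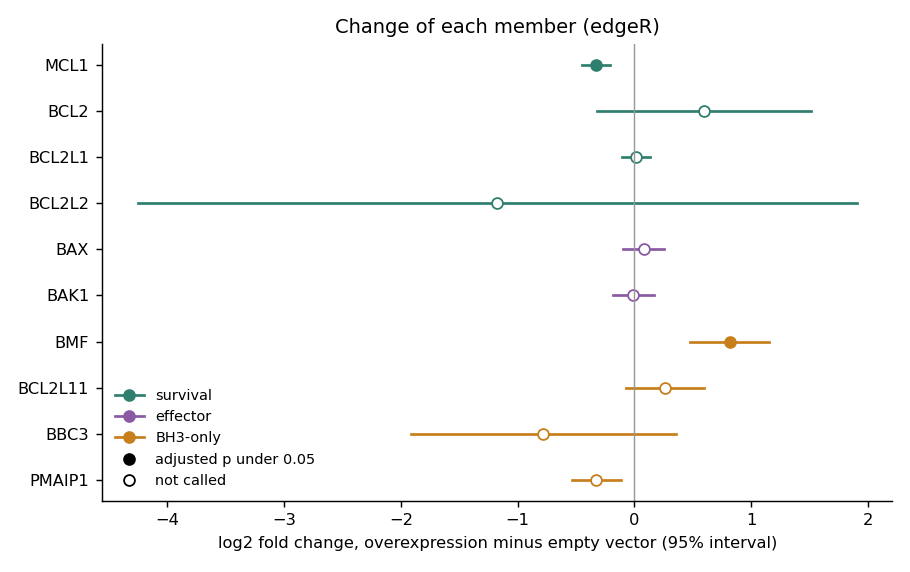
Log2 fold change of each member (horizontal axis, overexpression minus empty vector) from edgeR, with its 95% interval as a line, coloured by role; filled points have an adjusted p under 0.05. MCL1 (-0.33) and BMF (0.81) are filled, and the interval of BCL2L2 runs from -4.25 to 1.90.

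MCL1 encodes the survival protein that holds BAK1 and BCL2L11 in check, and its messenger RNA had the highest mean level of the 10. It had 247.8, 250.8 and 237 CPM in the overexpression libraries, against 326, 297 and 302 CPM in the empty vector libraries. Every overexpression library lay below every empty vector library. Groups did not overlap for 4 of the 10 members, and for 31.4% of all genes tested, in one direction or the other. The mean was 245 ± 7.04 CPM with overexpression and 308 ± 15.7 CPM with empty vector (SD, n = 3 each), a 1.26-fold fall. The log2 fold change was -0.33 (SE 0.051, edgeR adjusted p = 0.0146), with a 95% interval of -0.45 to -0.21. The call was lost without overexpression replicate 1 (adjusted p = 0.0538) or replicate 3 (0.0633), with log2 fold changes of -0.34 and -0.31. In such bulk libraries fewer cells of a type and less RNA per cell cannot be told apart. On the deposited TPM (which are also scaled by transcript length) MCL1 had 122, 126 and 118 with overexpression, against 170.2, 152 and 150.0 with empty vector. The gene lies on chromosome 1 from 150574551 to 150579738, minus strand (GRCh38), and shares 2 exonic bases with ADAMTSL4-AS1 on the same strand.

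BMF encodes a BH3-only protein that is held at the actin cytoskeleton through a dynein light chain and is known for its part in the death of cells that lose their attachment. Its counts were low, 229, 236 and 235 in the overexpression libraries, against 122, 170 and 119 in the empty vector libraries. On the scaled level this was 5.45, 5.998 and 6.22 CPM with overexpression, against 2.98, 3.99 and 3.07 CPM with empty vector, and the groups did not overlap. BMF averaged 5.89 ± 0.395 CPM with overexpression and 3.35 ± 0.557 CPM with empty vector (SD, n = 3 each), a 1.76-fold rise. The log2 fold change was 0.81 (SE 0.146, edgeR adjusted p = 0.0234), with a 95% interval of 0.48 to 1.151. Leaving out 1 library at a time ended the call in 5 of 6 fits, at adjusted p-values of 0.0577 to 0.0839, and held without empty vector replicate 2 (0.0298); the log2 fold change lay between 0.73 and 0.96 in all 6. On the deposited TPM the log2 fold change was 0.61 and was not called (limma-trend adjusted p = 0.0862), in a fit that called 2.16% of genes and 1 member, MCL1. Exons of BMF share 461 bases with BMF-AS1 on the opposite strand, and since the strand setting of the counting is not given in the sources used here, reads of the pair cannot be told apart.

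The stretch just upstream of the outermost annotated start of BMF is shown because BMF was the BH3-only gene that rose. It covers 237 bases at chr15:40108893-40109129 on the minus strand (RefSeq, GRCh38.p14), and the capitals mark motif matches on either strand.
BMF upstream: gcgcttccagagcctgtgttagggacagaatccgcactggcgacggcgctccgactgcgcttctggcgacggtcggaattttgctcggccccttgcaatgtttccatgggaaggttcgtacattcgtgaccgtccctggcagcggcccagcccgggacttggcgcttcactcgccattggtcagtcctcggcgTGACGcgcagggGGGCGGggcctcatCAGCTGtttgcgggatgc
It holds 1 GC box (GGGCGG), 1 half-site of the cAMP response element (TGACG) and 1 E-box of the form CAGCTG, which do not overlap, and 0 matches to the forkhead core TGTTTAC. Among 35116 RefSeq promoters read over the same length, 41.0% hold the GC box, 20.2% the half-site, 13.3% this E-box and 2.81% the forkhead core. These are letter matches only.

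**Figure D2:**
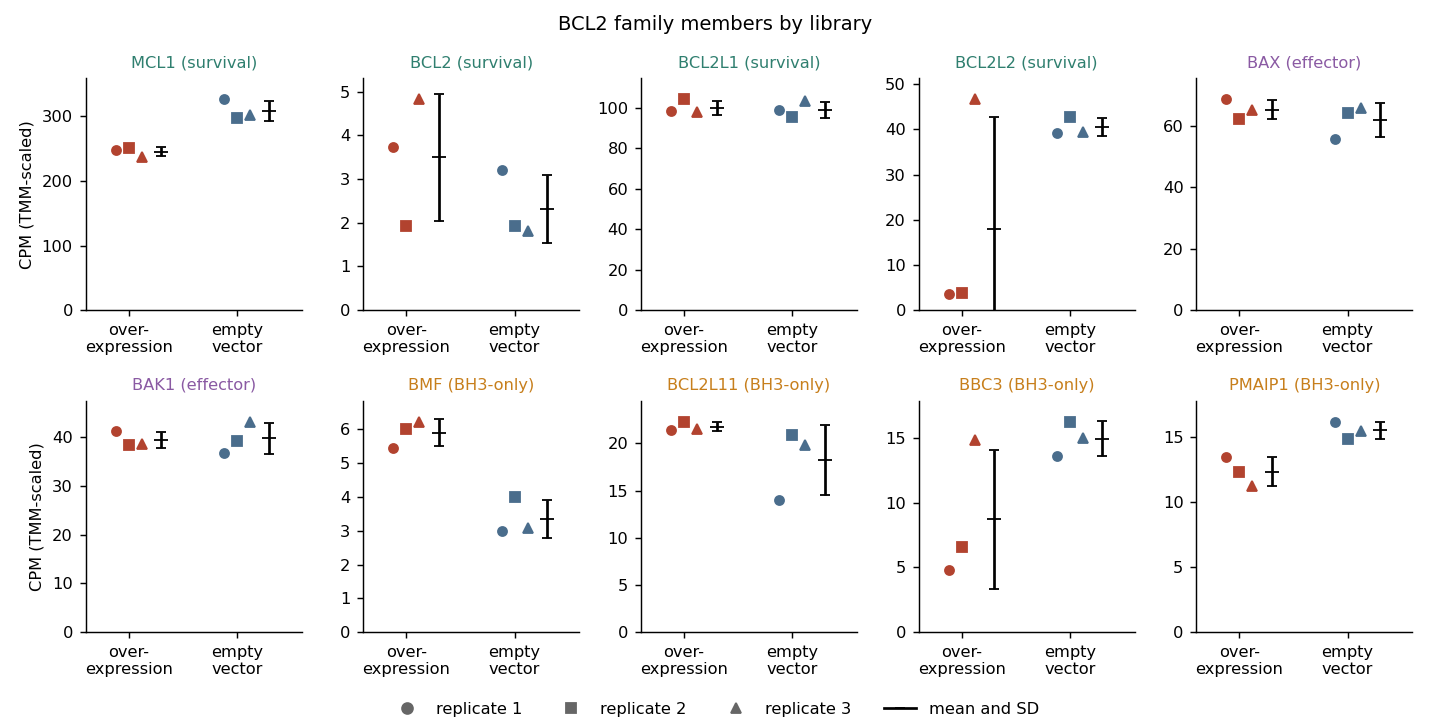
CPM (TMM-scaled, vertical axis from 0) of the 10 members in each library, overexpression in red and empty vector in blue, with symbols for replicates 1 to 3 and the mean and SD in black; the lower SD bar of BCL2L2 is cut at 0. MCL1 and PMAIP1 lie lower and BMF and BCL2L11 higher in all 3 overexpression libraries, and BCL2L2 and BBC3 are low in replicates 1 and 2 of the overexpression group.

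The other survival genes had no call. BCL2L1, which encodes BCL-xL, had 98.3, 104 and 97.8 CPM with overexpression, against 98.7, 95.4 and 103 CPM with empty vector, and the groups overlapped. Its log2 fold change was 0.01 (95% interval -0.10 to 0.13, edgeR adjusted p = 0.895). It shares 1424 exonic bases with ABALON on the opposite strand. BCL2, the founding member of the family, was scarce, with 157, 76 and 182 counts with overexpression, against 131, 82 and 70 counts with empty vector. Its log2 fold change of 0.60 had an interval of -0.32 to 1.51 (edgeR adjusted p = 0.397), so a change of the fitted size was not detectable at this depth and spread. It was 0.30 without overexpression replicate 3 and 0.90 without empty vector replicate 1, with a range of 0.30 to 0.90 when each library was left out in turn, and was called in 0 of those fits.

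BCL2L2 encodes the survival protein BCL-w, and its values split the overexpression group. It had 150, 147 and 1762 counts in overexpression replicates 1, 2 and 3, against 1605, 1827 and 1529 counts in the empty vector libraries. Overexpression replicate 3 thus lay among the empty vector libraries and the other 2 far below them. With all libraries the log2 fold change was -1.18 (SE 1.1545, edgeR adjusted p = 0.5997). Without overexpression replicate 3 it was -3.47 (edgeR adjusted p = 2.26e-05), and without replicate 1 or replicate 2 it was -0.69 in each case (0.806 and 0.793). The deposited TPM differed less, with 6.46, 7.71 and 28.3 TPM with overexpression, against 26.4, 27.3 and 23.8 TPM with empty vector. The log2 ratio of count to TPM, centred in each library on its median, was -1.38, -1.55 and 0.20 in the overexpression libraries, against 0.13, 0.19 and 0.21 in the empty vector libraries. Its SD over the libraries was 0.853, against a median of 0.0347 over the 10546 genes whose counts reached 200 in all 6 libraries.

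BCL2L2 (chromosome 14, 23298790 to 23311759, plus strand) overlaps annotated neighbours in the table. The readthrough gene BCL2L2-PABPN1, transcribed across BCL2L2 into its neighbour, shares 813 exonic bases on the same strand, and PPP1R3E shares 206 on the opposite strand. The readthrough gene had 437, 203 and 162 counts with overexpression, against 128, 46 and 33 counts with empty vector, higher in all 3 overexpression libraries, with a log2 fold change of 1.97 that was not called (SE 0.629, edgeR adjusted p = 0.149). BCL2L2 and the readthrough gene summed to 587, 350 and 1924 counts with overexpression, against 1733, 1873 and 1562 counts with empty vector. On TPM the same sums were 21.7, 15.6 and 34.4 with overexpression, against 31.2, 28.9 and 25.1 with empty vector. Overexpression replicates 1 and 2 were the lowest on both scales, by less on TPM than on counts. PPP1R3E had 470, 301 and 454 counts with overexpression, against 507, 525 and 234 counts with empty vector, and the groups overlapped. How reads shared by these genes were assigned is not given in the sources used here, so the counts of BCL2L2 are uncertain, and the part of the shared exons in the split was not tested.

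**Figure D3:**
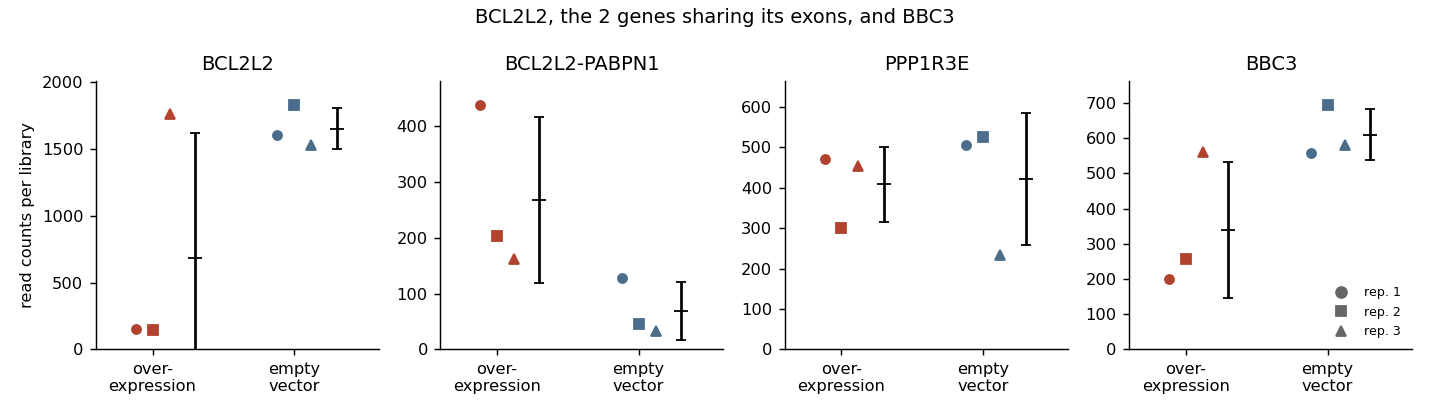
Read counts per library (vertical axis from 0, not scaled between libraries) for BCL2L2, for BCL2L2-PABPN1 and PPP1R3E, whose exons overlap it, and for BBC3; red, overexpression, blue, empty vector, black, mean and SD (the lower bar of BCL2L2 is cut at 0). BCL2L2 has 150 and 147 counts in overexpression replicates 1 and 2 and 1762 in replicate 3, and BBC3 has 201, 258 and 560.

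The effector genes differed by less than the spread between replicates. BAX had 68.7, 62.3 and 65.2 CPM with overexpression, against 55.7, 64.2 and 65.9 CPM with empty vector, a log2 fold change of 0.08 with an interval of -0.10 to 0.25 (edgeR adjusted p = 0.579). BAK1 had 41.3, 38.4 and 38.5 CPM with overexpression, against 36.8, 39.2 and 43.2 CPM with empty vector, a log2 fold change of -0.01 with an interval of -0.19 to 0.16 (edgeR adjusted p = 0.947). The groups overlapped for both genes, and both intervals exclude a change of the size fitted for BMF.

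PMAIP1 encodes NOXA, a BH3-only protein that binds MCL1 and promotes its degradation, and it had 13.5, 12.4 and 11.2 CPM with overexpression, against 16.2, 14.9 and 15.5 CPM with empty vector. The groups did not overlap, with overexpression lower, but the log2 fold change of -0.33 (SE 0.091) missed the threshold (edgeR adjusted p = 0.0788; DESeq2 adjusted p = 0.0550). Its interval was -0.54 to -0.12, and in size its change was close to that of MCL1. BCL2L11, which encodes BIM, a BH3-only protein able to bind every survival member, had 21.4, 22.3 and 21.6 CPM with overexpression, against 14.0, 20.8 and 19.8 CPM with empty vector. Its groups did not overlap either, by a margin of under 1 CPM, and the log2 fold change of 0.26 was not called (edgeR adjusted p = 0.324). The low value of empty vector replicate 1 weighed on it: without that library the log2 fold change was 0.10. Exons of BCL2L11 share 727 bases with MIR4435-2HG on the opposite strand.

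BBC3 encodes PUMA, a BH3-only protein induced by DNA damage, and its values split the overexpression group as those of BCL2L2 did. It had 4.79, 6.56 and 14.8 CPM in overexpression replicates 1, 2 and 3, against 13.6, 16.2 and 14.996 CPM in the empty vector libraries. Replicates 1 and 2 lay below every empty vector library and replicate 3 lay among them. The log2 fold change was -0.78 with all libraries (SE 0.443, edgeR adjusted p = 0.3599) and -1.40 without overexpression replicate 3 (0.0163), against -0.48 without replicate 1 and -0.61 without replicate 2 (0.551 and 0.592). Unlike BCL2L2, its ratio of count to TPM was steady, with an SD over the libraries of 0.0107 on the log2 scale. That SD was 0.156 for BCL2, 0.145 for BCL2L11 and 0.145 for BMF, all above the median of 0.0347 over genes with deep counts. Apart from BCL2L2, it was 0.038 or less for the remaining members. The part of this in the loss of the BMF call on TPM was not tested. BBC3 (chromosome 19, 47220822 to 47232766, minus strand) shares exonic bases only with 2 microRNA genes, MIR3190 and MIR3191.

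On the deposited TPM, which allow levels of different genes to be compared, MCL1 had the highest mean, at 139.6 TPM over the 6 libraries, followed by BAX (133), BCL2L1 (87.1), BAK1 (36.2), BCL2L2 (20.0), PMAIP1 (14.1), BBC3 (13.2), BCL2L11 (11.7), BMF (2.80) and BCL2 (1.11). Within both groups BAX stood clear of BCL2L1, BCL2L1 of BAK1, BAK1 of BCL2L2, BCL2L11 of BMF and BMF of BCL2. Of neighbours in this order, only PMAIP1 and BBC3 overlapped within both groups. BCL2L2 and PMAIP1, and likewise BBC3 and BCL2L11, overlapped within the overexpression group and not within the empty vector group. MCL1 and BAX separated within each group, in opposite directions: MCL1 was below BAX in the overexpression group, with 118 to 126 TPM beside 131 to 139.8 TPM for BAX, and above it in the empty vector group, with 150.0 to 170.2 TPM beside 121 to 137 TPM for BAX. In the overexpression group BAX, at 134 ± 4.73 TPM, was above MCL1, at 122 ± 3.85 TPM, while in the empty vector group BAX was at 131 ± 9.05 TPM and MCL1 at 157 ± 11.1 TPM (SD, n = 3 each).

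**Figure D4:**
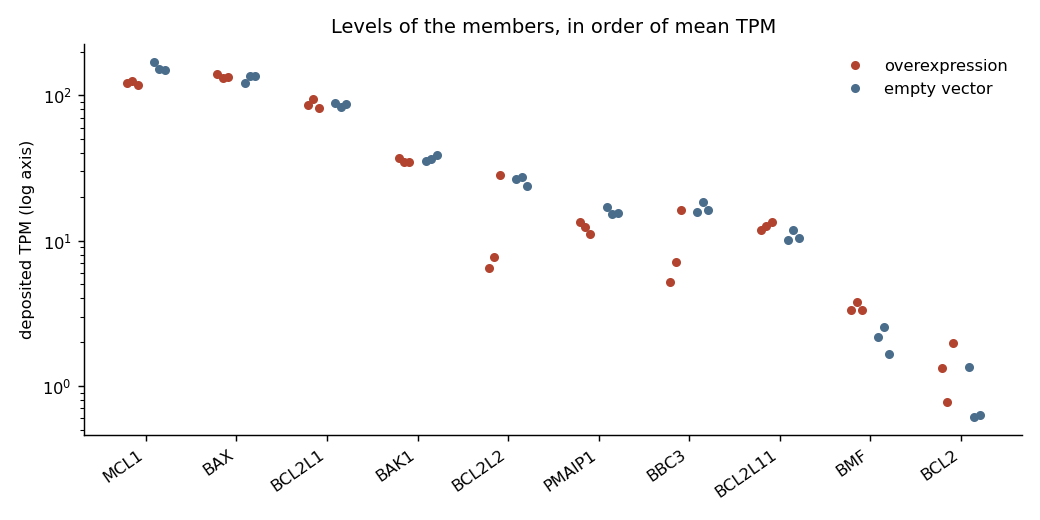
Deposited TPM (vertical log axis) of the members in order of mean level, with each library as a point, overexpression in red and empty vector in blue. Levels span 139.6 TPM for MCL1 to 1.11 TPM for BCL2.

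Summed by role, the survival genes had 215, 228 and 230.2 TPM with overexpression, against 287, 263 and 262 TPM with empty vector, and the groups did not overlap. MCL1 made up 51.2% to 56.5% of that sum with overexpression and 57.2% to 59.3% with empty vector. The effector genes summed to 177, 166 and 167 TPM with overexpression, against 156, 173 and 175 TPM with empty vector, and the BH3-only genes to 33.9, 35.9 and 44.1 TPM with overexpression, against 45.0, 48.2 and 43.7 TPM with empty vector. The BH3-only sum did not carry the rise of BMF, which was the least abundant of these genes, and its lower values came from the libraries in which BBC3 was low. The ratio of survival to BH3-only TPM was 5.98 ± 0.656 with overexpression and 5.94 ± 0.452 with empty vector (SD, n = 3 each), a difference smaller than the spread. The ratio of survival to effector TPM was 1.32 ± 0.0914 with overexpression and 1.62 ± 0.192 with empty vector, and the libraries did not overlap. Among survival genes, mean TPM was lower with overexpression for MCL1 (122 against 157) and BCL2L2 (14.1 against 25.8). It was not lower for BCL2L1 (87.4 against 86.7) or BCL2 (1.355 against 0.861). The survival sum and its ratio to the effectors thus repeat the values of MCL1 and BCL2L2, and BCL2L2 split the overexpression group. MCL1 exceeded BMF 36.5-fold, 33.1-fold and 35.6-fold in the overexpression libraries, against 77.8-fold, 59.8-fold and 90.8-fold in the empty vector libraries. As MCL1 was lower and BMF higher in every overexpression library, the separation of this last ratio follows from those changes and adds nothing to them. The sums and ratios here are descriptions with no test.

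**Figure D5:**
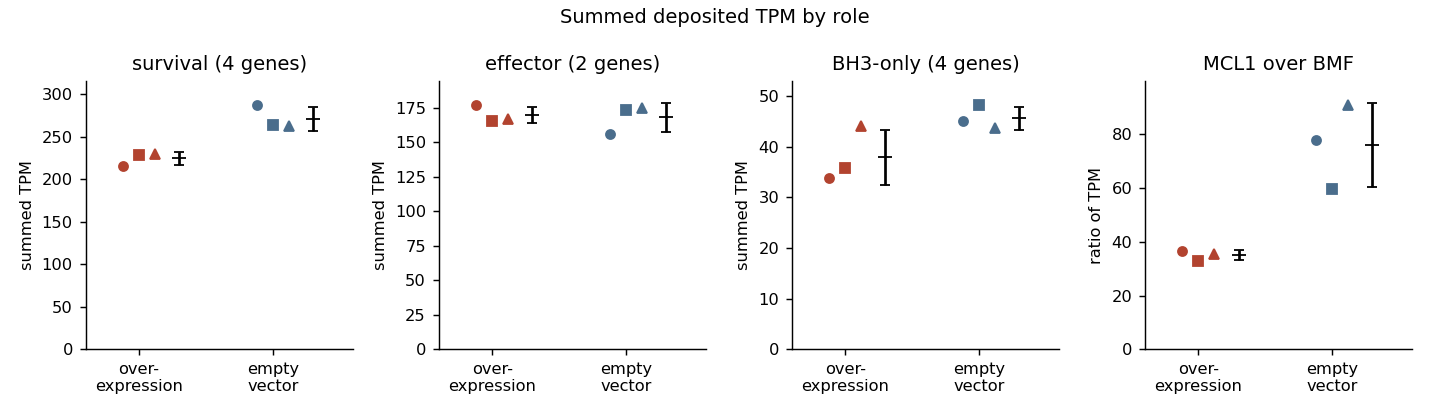
Summed deposited TPM of the survival, effector and BH3-only genes and the ratio of MCL1 to BMF TPM in each library (vertical axes from 0), overexpression in red, empty vector in blue, mean and SD in black. The survival sum and the MCL1 to BMF ratio are lower in all 3 overexpression libraries.

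Around these members, 5 lists of genes of the same pathway were counted in the same fit. Over all genes tested, that fit called 3.57% higher and 2.03% lower. For lists this short, 0 or 1 called gene is near those shares. Of 9 tested genes among 13 further BCL2 relatives, 1 rose and 0 fell, with a median log2 fold change of 0.17. BNIP3, a mitochondrial protein gene induced by hypoxia, had 137, 145.5 and 135 CPM with overexpression, against 106, 111 and 107.5 CPM with empty vector (log2 fold change 0.36, edgeR adjusted p = 0.00991). Its relative BNIP3L was at 0.14 (adjusted p = 0.112), and BID, which links death receptors to the mitochondria, at 0.17 (0.149). BCL2A1, a survival gene of blood cells, had 0 counts in all 6 libraries, which allows up to 0.0705 to 0.0786 CPM depending on the library, for counting error only.

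Genes listed for a part in the synthesis or stability of MCL1 had 0 of 12 called by edgeR, DESeq2 or limma-voom. These tools called 5.6%, 10.8% and 5.52% of all genes. In edgeR 1 of the 12 had an unadjusted p under 0.05, beside 23.6% of all genes tested. CUL1, a scaffold of ubiquitin ligases, was not called with all libraries, where its groups overlapped (log2 fold change -0.25, edgeR adjusted p = 0.408). It was called lower without overexpression replicate 3 (-0.45, 0.0471). The median log2 fold change was -0.03. The ligase gene BTRC was at -0.12 and the ligase gene FBXW7 at -0.23 (edgeR adjusted p = 0.186 and 0.212). HUWE1, also a ligase gene, was at 0.01 and the deubiquitinase gene USP9X at -0.02. Binding partners at the membrane and the cytoskeleton likewise had 0 of 7 called by edgeR, DESeq2 or limma-voom, with 1 at an unadjusted p under 0.05. DYNLL2, which encodes the dynein light chain that tethers BMF, was at -0.05, and VDAC2, which encodes the channel that holds BAK1, at 0.01. The smallest p-values were those of BAG1 (0.14, edgeR adjusted p = 0.131) and VDAC3 (0.12, 0.226).

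Of 11 transcription factors known to induce BH3-only genes or BAX, 2 rose and 1 fell, beside 3.57% and 2.03% of all genes tested. TP73, which induces BBC3, had 7.24, 9.78 and 9.42 CPM with overexpression, against 5.66, 4.24 and 5.24 CPM with empty vector (log2 fold change 0.80, edgeR adjusted p = 0.0307). E2F1, the cell cycle factor, averaged 148 ± 7.002 CPM with overexpression and 125 ± 3.65 CPM with empty vector (SD, n = 3 each; log2 fold change 0.25, edgeR adjusted p = 0.0340). DDIT3, which encodes CHOP, a stress factor that induces BCL2L11, had 28.6, 17.3 and 20.8 CPM with overexpression, against 43.3, 60.4 and 44.6 CPM with empty vector (log2 fold change -1.153, edgeR adjusted p = 0.0490). When each library was left out in turn, the calls of TP73 and DDIT3 held in 1 fit each and that of E2F1 in 0. On TPM, TP73 was at 0.47 (limma-trend adjusted p = 0.133) and E2F1 at 0.21 (0.0762), neither of them called. FOXO3 was at 0.03 and FOXO1 at 0.01.

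Downstream of the pore, 1 of 12 apoptosome and caspase genes rose and 0 fell, beside 3.57% and 2.03% of all genes tested. The median log2 fold change of the list was -0.03. CASP9, the caspase activated on the apoptosome, had 226, 216 and 244 CPM with overexpression, against 154, 167 and 179 CPM with empty vector (log2 fold change 0.46, edgeR adjusted p = 0.0136), and its call held in 5 of 6 fits that left out a library, missing the threshold without empty vector replicate 2 (0.0511). CYCS, which encodes cytochrome c, was at -0.26 (edgeR adjusted p = 0.0597; DESeq2 adjusted p = 0.0160).

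Among 9721 genes with a mean of at least 10 CPM, the profiles nearest to that of MCL1 over the 6 libraries were those of SIKE1, DICER1, OSMR, TOP1 and HIF1A, with a root mean square difference of 0.0254 to 0.0305 in log2 CPM. The genes nearest to BMF were ALDH3A1, ATOH8, PSCA, RHOBTB1 and CALHM5, at 0.0906 to 0.121. Each profile was set to 0 at its empty vector mean, so likeness here means a change of like size and like values in each library. OSMR fell by 0.35 on the log2 scale (edgeR adjusted p = 0.0118) and HIF1A by 0.33 (0.0323), while ALDH3A1 rose by 0.73 (0.0126) and ATOH8 by 0.80 (0.00179).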

How the data were processed

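The deposited gene counts are whole numbers with no normalization applied, and the deposited TPM are the authors' values per gene and library. Per the submitters' processing notes, Trimmomatic 0.36, HISAT2, featureCounts of Subread 1.5.1 and DESeq were used with build GRCh38. Neither the tool behind the TPM nor the annotation release is named there. Symbols were matched for 20148 of 20263 rows, and positions came from GENCODE release 29 (GRCh38).

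Counts were tested in R 4.3.3 with edgeR 4.0.16, using filterByExpr (minimum count 10, minimum total 15), TMM scaling and a robust quasi-likelihood fit on group alone. Standard errors were taken as the absolute log2 fold change over the root of the F statistic. DESeq2 1.42.0 and limma 3.58.1 (limma-voom on counts, limma-trend on log2 of TPM plus 0.5) served as alternatives, and the fits on counts were tested on simulated data. Members and lists were chosen with earlier results of these data known. Named genes were all members, called list genes, or the 2 of smallest p where a list had fewer than 2 called, and the 5 nearest profiles to MCL1 and BMF. BID, HUWE1, USP9X, DYNLL2, VDAC2, CUL1, FOXO1, FOXO3 and BCL2A1 were named after their values were seen. Some items, among them a further gene list, are not reported here. All 12 value columns were assigned to samples by name.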

Additional observations from a re-analysis of the deposited data

How the results depend on the processing

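Over all genes, DESeq2 called 1316, limma-trend on TPM 266 (267 with a pseudocount of 0.1, 158 without a filter on TPM) and fits without 1 library 193 to 458, against 759 with edgeR, and the cause was not tested beyond the fewer libraries in the last. The other 5 alternatives (limma-voom, RLE, unscaled library sizes, and looser or stricter count filters) gave 728 to 787. Of the members, limma-trend on TPM called 1 at either pseudocount and 0 without a filter, and fits without 1 library called 0 to 2. The 2 called without overexpression replicate 3 were BCL2L2 and BBC3, both lower. In that fit neither MCL1 (edgeR adjusted p = 0.0633) nor BMF (0.0839) was called. The log2 fold change of BMF was not called on TPM at 0.61 (0.70 with a pseudocount of 0.1, 0.61 without a filter) and lay between 0.73 and 0.96 without 1 library. That of MCL1 was -0.37 on TPM without a filter, where it was not called, and lay between -0.36 and -0.29 without 1 library. The cause was not tested. BCL2L1 changed sign with library size only (-0.017) and lay between -0.015 and 0.044 without 1 library, and BAK1 between -0.065 and 0.052, all near 0. MCL1 kept its negative sign and BMF its positive sign in all 16 alternatives. Over the same 16 the survival median stayed negative (-0.19 to -0.14), while the effector median (-0.030 to 0.088) was negative in 5 and the BH3-only median (-0.10 to 0.0034) positive in 1. The SD of these medians between replicates was 0.131, 0.0952 and 0.121. With BCL2L2 lowest and BCL2 highest in every fit, the survival median is the midpoint of MCL1 and BCL2L1. Its sign therefore repeats the fall of MCL1.

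With the replicate number as a block, edgeR called 232 genes and 1 member, MCL1, and BMF, at a log2 fold change of 0.82, was not called. The labels do not say that a number marks a shared culture. The deviations of same-numbered libraries correlated at -0.0025, 0.0399 and 0.0705. Correlations over all genes cannot show whether some genes follow a shared culture or day, and this was not tested. Of 3 libraries compared, 1 did not correlate best with its own number.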
